A study of Mus musculus with 28 samples.

Results

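The TRIM (tripartite motif) family was followed through hippocampal RNA of an Alzheimer's disease mouse model and through RNA bound by the nucleic acid sensor ZBP1. The members, chosen by name and mean level over all libraries and not by any difference between genotypes, were the genes whose symbol is Trim followed by a number, pseudogenes left out, with a mean of at least 0.5 CPM (read counts scaled to a fixed library total) over the 24 hippocampal libraries. Of 68 TRIM genes among the 55487 gene IDs of the count tables, 44 met this minimum. Just inside the minimum were Trim72 at 0.83 CPM and Trim43a at 1.17 CPM. Just below the minimum were Trim6 at 0.433 CPM, Trim43c at 0.43 CPM, Trim30b at 0.415 CPM and Trim15 at 0.413 CPM.

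TRIM proteins share a RING finger, B-box and coiled-coil module, and most act as E3 ubiquitin ligases. Many are induced by interferon and either block viruses directly, as primate TRIM5 does by binding retroviral capsids, or tune the pathways that sense foreign nucleic acid, as TRIM25 does for RIG-I. Others work in neurons on axon guidance, microtubules and protein turnover, and a small branch reads chromatin and represses transcription.

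The hippocampal libraries came from mice aged 9 months in 2 cohorts, with 3 libraries for each genotype. The Ripk1 cohort held Ripk1D138N/D138N 5xFAD, 5xFAD without that mutation, Ripk1D138N/D138N and WT mice. The Zbp1 cohort held Zbp1-/- 5xFAD, 5xFAD with intact Zbp1, Zbp1-/- and WT mice, and each cohort had its own WT libraries. 5xFAD mice carry mutant human amyloid precursor protein and presenilin transgenes driven in neurons by the Thy1 promoter, so amyloid forms while the mouse genes remain. Ripk1D138N is a point mutation that leaves RIPK1, a signalling kinase that ZBP1 can engage, without catalytic activity, and Zbp1-/- mice carry no intact copy of Zbp1. The labels do not say whether each library is a separate animal, so p-values speak only for the scatter among these libraries, which may be in part technical.

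Libraries of the Ripk1 cohort held 16624325 to 44801371 counts and those of the Zbp1 cohort 8362348 to 34640479 counts, where WT 1 was the shallowest. All 44 members had a count in every library, and together they took 0.291% to 0.334% of each library's counts. In the Zbp1 cohort, 5xFAD 2 at 782.5 CPM and WT 2 at 968.7 CPM stood apart by low Malat1, a nuclear RNA that the cohort's other libraries held at 1937.7 CPM or more, and results of that cohort are also given without them where they move. Zbp1 itself had 0.351, 0.32 and 0.298 CPM in Zbp1-/- 5xFAD libraries, against 1.87, 1.79 and 3.58 CPM in 5xFAD libraries of the same cohort. It had 0, 0 and 0.319 CPM in Zbp1-/- libraries, against 0, 0.383 and 0.1 CPM in WT libraries, so the gene was near the detection limit without the transgenes and a few reads were counted in mice labelled as knockout. Ripk1D138N is a point mutation and cannot be checked from gene counts. Markers of neurons, astrocytes, oligodendrocytes and microglia were all present, as hippocampus requires, and the 8 markers of T and NK lymphocytes summed to at most 9.02 CPM in any library. The 6 choroid plexus markers differed widely among libraries of 1 genotype, summing to 48.3 to 4800 CPM over all libraries. In the Zbp1 cohort they summed to 48.6, 4690 and 4080 CPM in 5xFAD, against 172, 4800 and 131 CPM in WT, so both low-Malat1 libraries were high, and their part in the TRIM values was not tested.

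The members were grouped by known role. These lists were drawn up with earlier results of these data known, so the share of a list that is called is not an independent test. The interferon-linked or antiviral list has 12 members, the neuronal or cytoskeletal list 8, the chromatin list 4, a muscle list 1 (Trim72, a membrane repair protein), and 19 have other roles. Of the 12 antiviral members, 7 lie on chromosome 7. In the RefSeq gene order of assembly GRCm38.p6, 10 TRIM genes follow one another there, interrupted by a single other protein-coding gene: Trim6, Trim34a, Trim5, Trim12a, Trim34b, Trim12c, Trim30b, Trim30c, Trim30a and Trim30d. Of these, 6 are members, and these neighbours arose by duplication.

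The promoters of antiviral members are shown because 11 of the 12 were higher in 5xFAD than in WT in the Ripk1 cohort and 8 of the 12 in the Zbp1 cohort, as described further on. RefSeq promoters (GRCm38.p6, 250 bases before to 50 bases after an annotated start) were available for 34 of the 44 members. They were searched on both strands for the core of the interferon-stimulated response element (ISRE), spelled GAAA, then NN (any bases), then GAAA again, to which interferon-activated transcription factors bind. It was present in 8 of 10 antiviral members with a promoter (80%), in 1 of the other 24 (Trim2), and in 3.99% of 27025 genes with a promoter. The antiviral list was drawn up from known interferon links, so this share is not independent of the list, and a match describes letters, not binding. The gamma-activated sequence TTCNNNGAA, searched in the same way, was present in 0 of the 10 and in 9.55% of the 27025 genes. The windows below run 5′ to 3′ on the gene's strand with the matched bases in capitals and up to 25 bases on each side. In GRCm38.p6 they lie at chr7:102565433-102565494 (Trim21), chr7:104244442-104244501 (Trim34a), chr7:104288121-104288180 (Trim5), chr7:104315451-104315510 (Trim12a), chr7:104353344-104353403 (Trim12c), chr7:104465195-104465254 (Trim30a), chr7:104507856-104507915 (Trim30d) and chr17:36836961-36837026 (Trim26). Trim34a and Trim26 are on the plus strand and the other 6 on the minus strand.
Trim21: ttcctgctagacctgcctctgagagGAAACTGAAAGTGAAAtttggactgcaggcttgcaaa
Trim34a: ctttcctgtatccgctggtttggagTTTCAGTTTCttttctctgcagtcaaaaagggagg
Trim5: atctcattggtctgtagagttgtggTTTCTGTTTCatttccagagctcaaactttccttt
Trim12a: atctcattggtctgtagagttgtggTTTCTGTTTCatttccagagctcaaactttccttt
Trim12c: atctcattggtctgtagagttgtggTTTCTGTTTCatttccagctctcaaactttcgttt
Trim30a: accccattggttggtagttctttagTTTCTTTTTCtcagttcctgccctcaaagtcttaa
Trim30d: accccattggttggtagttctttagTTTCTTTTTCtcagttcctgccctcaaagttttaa
Trim26: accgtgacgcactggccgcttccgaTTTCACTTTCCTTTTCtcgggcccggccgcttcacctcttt
The longer capital runs of Trim21 and Trim26 are 2 overlapping matches each. The Trim5 and Trim12a windows were identical over all 60 bases, Trim12c differed from them at 3 bases, and Trim30a and Trim30d differed at 1 base. A second annotated start of Trim30a also has a match, in a window at chr7:104446089-104446148 that is not compared here. These genes are close paralogs that can share reads. How multi-mapped reads were counted is not given in the sources used here, and the split of counts within Trim5, Trim12a and Trim12c and within Trim30a and Trim30d is uncertain.

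The first comparison asks what the 5xFAD transgenes do to the family. In the Ripk1 cohort 11 of the 12 antiviral members were higher in 5xFAD than in WT, with a median log2 fold change of 1.38 over the list, while all genes tested had a median of 0.02. Across the family 12 members rose and 5 fell. The 17 members called are 38.6% of the family, beside 16.1% of the 21376 genes tested (edgeR quasi-likelihood test, Benjamini-Hochberg adjusted p under 0.05; 8.11% of genes higher and 8.02% lower).

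**Figure D1:**
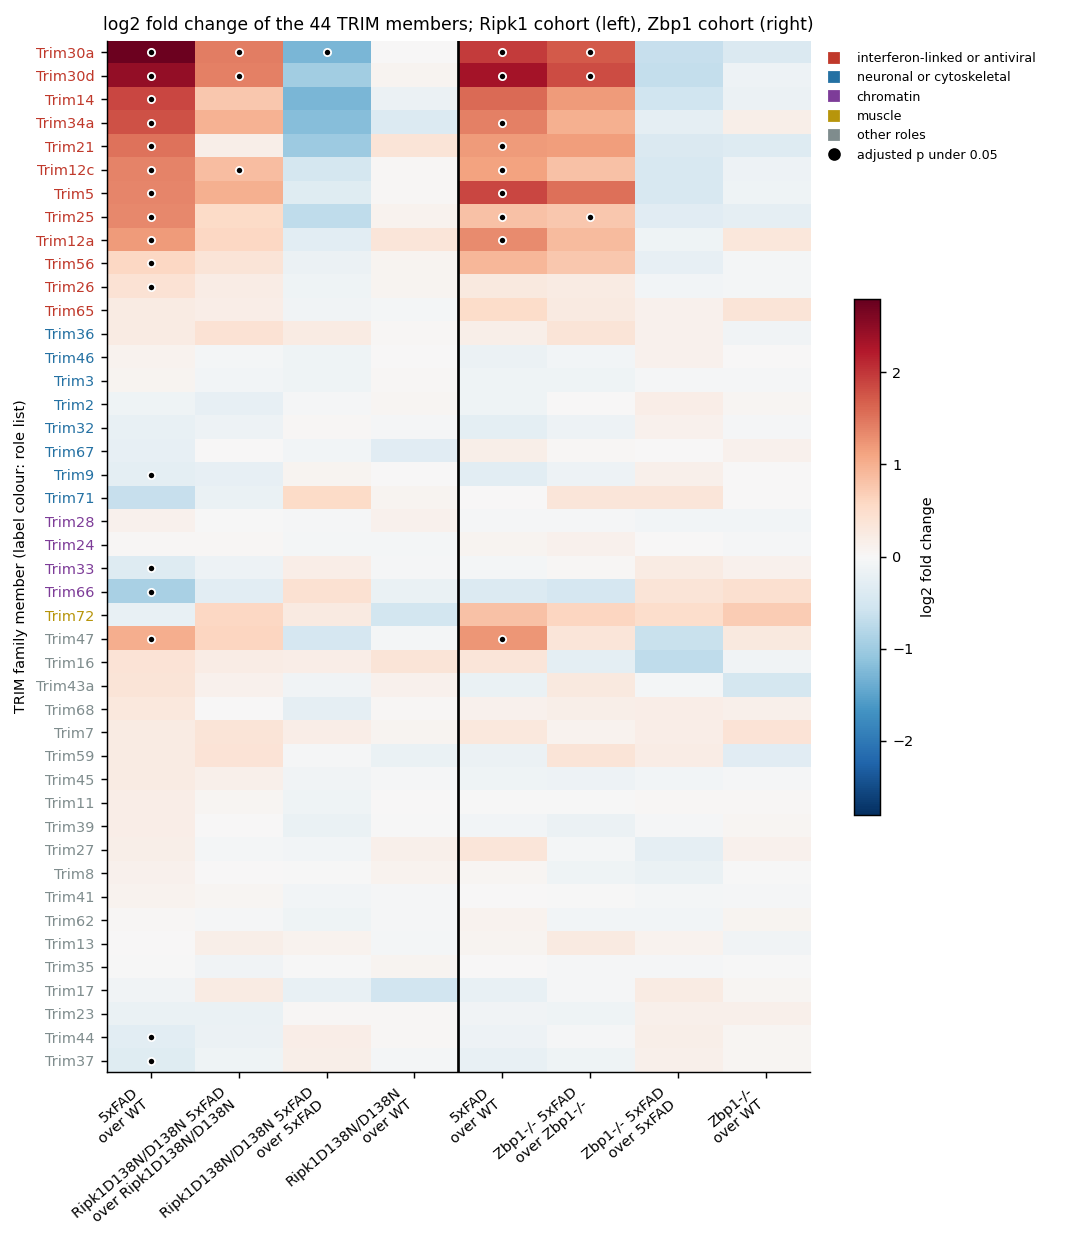
log2 fold change (colour) of each of the 44 members (rows, grouped by role) in 8 comparisons (columns), with a dot where the adjusted p was under 0.05. The red block at the top left is the antiviral list in 5xFAD over WT, where 11 of 12 members of the Ripk1 cohort and 8 of 12 of the Zbp1 cohort carry a dot.

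The Trim30 genes had the largest changes of the family in the Ripk1 cohort. Trim30a, an interferon-induced protein that restrains Toll-like receptor signalling, had 24.7, 18.5 and 28.8 CPM in 5xFAD libraries, against 4.18, 3.28 and 3.31 CPM in WT libraries. The groups were far apart, with a log2 fold change of 2.74 ± 0.23 (SE; adjusted p = 3.81e-06). Its neighbour Trim30d had 12.6, 11.4 and 15.1 CPM in 5xFAD, against 1.93, 2.94 and 2.15 CPM in WT, and its log2 fold change was 2.47 ± 0.22 (adjusted p = 6.58e-06). For both genes the lowest 5xFAD library was several-fold above the highest WT library.

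The relatives of primate TRIM5 rose as well. Trim12a had 12.8, 12.4 and 10.2 CPM in 5xFAD, against 5.28, 5.61 and 4.44 CPM in WT (log2 fold change 1.20 ± 0.17). Trim12c had 11.8, 10.5 and 13.3 CPM in 5xFAD, against 4.13, 4.99 and 4.49 CPM in WT (1.39 ± 0.21). Trim5 had 2.48, 3.8 and 3.58 CPM in 5xFAD, against 0.939, 1.59 and 1.32 CPM in WT (1.36 ± 0.33). The adjusted p of Trim12a, Trim12c and Trim5 were 0.000534, 0.000779 and 0.0139 in edgeR. Trim34a, which stands next to them and whose human counterpart acts with TRIM5 against retroviruses, had 10.1, 5.3 and 7.48 CPM in 5xFAD, against 2.2, 1.93 and 2.48 CPM in WT (1.79 ± 0.25, adjusted p = 0.000417). All 6 members of the chromosome 7 run were therefore higher in 5xFAD.

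Antiviral members outside the run also rose. Trim25, the ligase that activates RIG-I, had 20.6, 21.7 and 27.8 CPM in 5xFAD, against 9.71, 8.07 and 9.78 CPM in WT (log2 fold change 1.35 ± 0.15, adjusted p = 6.65e-05). Trim21, a cytosolic antibody receptor that sends antibody-coated virus to the proteasome, had 7.54, 7.11 and 9.16 CPM in 5xFAD, against 3.33, 3.13 and 1.79 CPM in WT (1.53 ± 0.25, adjusted p = 0.00143). Trim14, an adaptor of the mitochondrial sensor hub MAVS, had 1.36, 2.74 and 3.34 CPM in 5xFAD, against 0.912, 0.554 and 0.579 CPM in WT (1.88 ± 0.40, adjusted p = 0.00688). Trim14 rests on few counts, 23, 77 and 107 in 5xFAD libraries and 34, 23 and 21 in WT libraries, and its error was the largest of the 3. Trim56, which acts in cGAS and STING signalling, had 21, 23.2 and 24.6 CPM in 5xFAD, against 15.4, 17.1 and 13.1 CPM in WT (0.59 ± 0.17, adjusted p = 0.0307). Trim26, a regulator of IRF3, rose by 0.40 ± 0.08 (adjusted p = 0.00513), and Trim65, which activates the RNA sensor MDA5, had 0.22 ± 0.17 (adjusted p = 0.433) with overlapping groups. In the "other roles" group, Trim47 alone rose, with 5.42, 7.57 and 4.58 CPM in 5xFAD, against 2.49, 3.28 and 2.92 CPM in WT (1.01 ± 0.22, adjusted p = 0.00685).

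**Figure D2:**
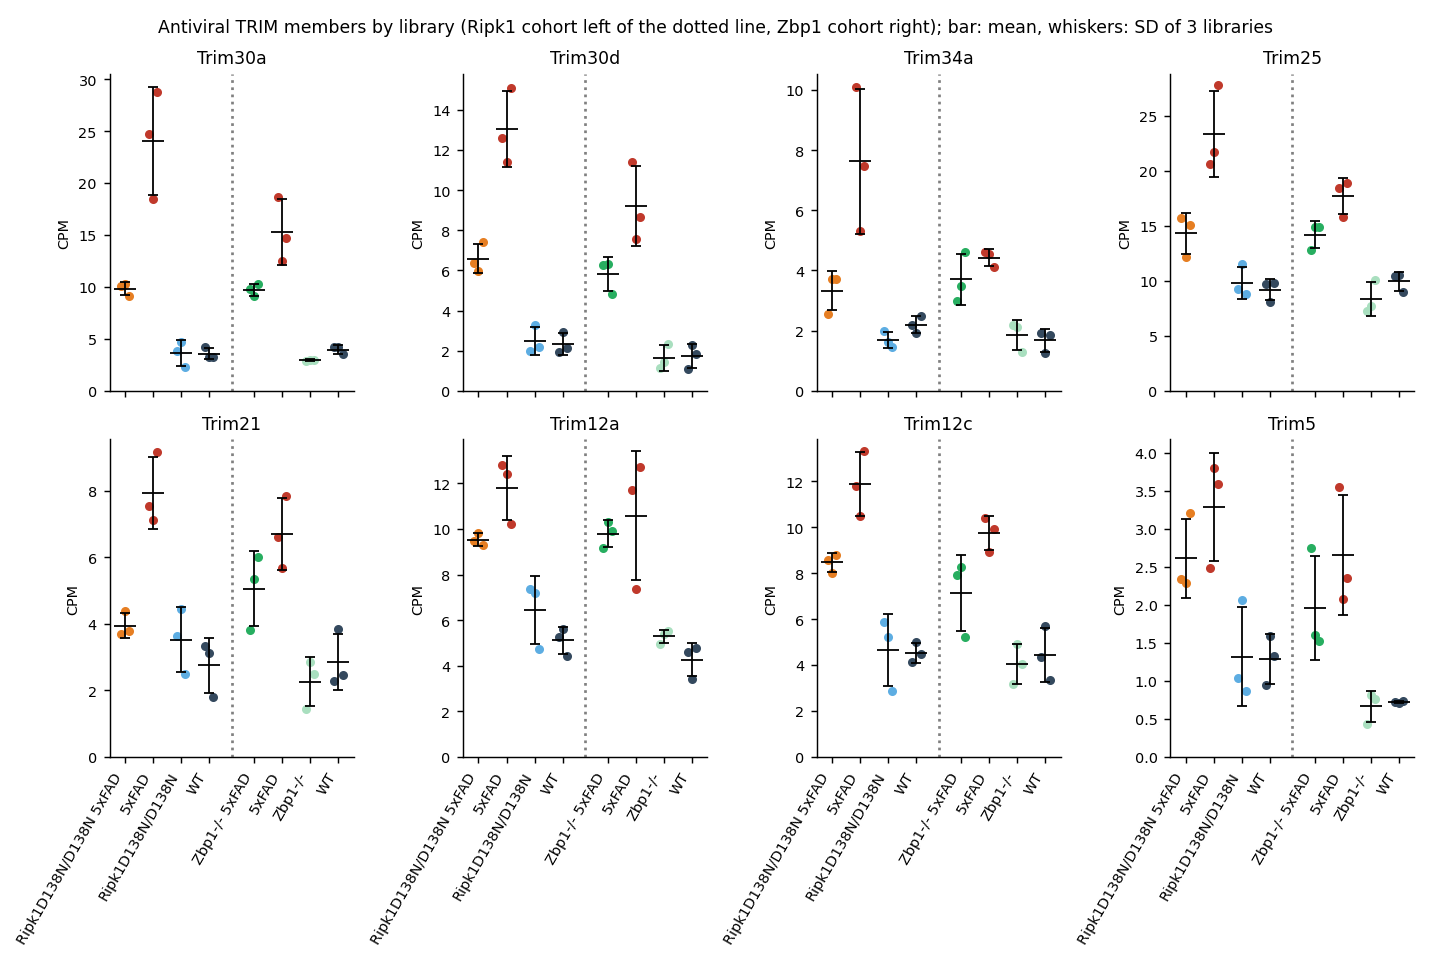
CPM of 8 antiviral members in each library (points), with the mean (bar) and SD (whiskers) of 3 libraries for each genotype in both cohorts. 5xFAD has the highest mean for each of these genes in its cohort, mutant 5xFAD a lower one, and mutant and WT libraries without the transgenes the lowest means (Trim30a at 2.32 to 4.75 CPM there).

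Genes of the same pathway and of microglia moved with the antiviral members. All 30 genes of a type I interferon response list were higher in 5xFAD of the Ripk1 cohort (median log2 fold change 3.14), as were 15 of 26 genes of nucleic acid sensing and interferon signalling (median 0.56), and none of either list was lower. All 12 microglial markers were higher too. Their summed level was 1380 to 1480 CPM in 5xFAD, against 332 to 440 CPM in WT, with none at 0 in any library. Astrocyte markers had 5 of 8 higher and 1 lower, and oligodendrocyte markers 4 of 7 higher. The part of these in the TRIM result was not tested, and in bulk tissue more cells of a type and more RNA per cell cannot be told apart. The 8 T and NK lymphocyte markers summed to 4.18 to 9.02 CPM in 5xFAD, with at most 1 at 0 in a library, against 0.831 to 2.07 CPM in WT, with at most 3 at 0.

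The 5 members that fell were Trim66, Trim33, Trim37, Trim44 and Trim9, with log2 fold changes of -0.91 to -0.27. Trim66, a chromatin reader of the Trim24, Trim28 and Trim33 branch, had 22, 16 and 20 CPM in 5xFAD, against 36.2, 36.8 and 36.1 CPM in WT (log2 fold change -0.91 ± 0.21, adjusted p = 0.00982). Trim33, which ubiquitinates SMAD4 in TGF-beta signalling, had 82.9, 76 and 85.6 CPM in 5xFAD, against 107, 102 and 108 CPM in WT (-0.37 ± 0.08, adjusted p = 0.00593). The WT libraries of both genes lay close together. Trim37, a ligase of peroxisomes and centrosomes, fell by 0.35 ± 0.08 (adjusted p = 0.0105) on the log2 scale, and reads that it may share with Ppm1e, which overlaps it, were not separable here. Trim44, a TRIM protein without a RING finger, fell by 0.30 ± 0.08 (adjusted p = 0.0191). Trim9, a brain ligase that binds the netrin receptor DCC and limits axon branching, had 298, 266 and 292 CPM in 5xFAD, against 351, 337 and 349 CPM in WT (-0.27 ± 0.06, adjusted p = 0.0115).

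Most neuronal and chromatin members did not pass the test. Trim2, which targets neurofilament light chain and whose loss in mice causes neurodegeneration, had 599, 570 and 614 CPM in 5xFAD, against 666, 667 and 623 CPM in WT (log2 fold change -0.13 ± 0.09, adjusted p = 0.349). Trim32, which acts in neural progenitor fate, had -0.20 ± 0.07 (adjusted p = 0.0638), and DESeq2 called it (adjusted p = 0.0332). Trim71, a stem cell RNA-binding protein, had -0.64 ± 0.25 (adjusted p = 0.0947). Trim67, the closest relative of Trim9, had -0.22 ± 0.17, with an adjusted p of 0.426. The synaptic ligase Trim3 had 0.07 ± 0.08, Trim46, which bundles microtubules at the axon initial segment, 0.09 ± 0.10, and the microtubule-associated Trim36 0.22 ± 0.17, with adjusted p of at least 0.445. The co-repressor Trim28, which silences retroelements with KRAB zinc fingers, had 0.12 ± 0.07 (adjusted p = 0.298), and Trim24 had 0.04 ± 0.08. Beside these, 2 of 10 neuronal markers were lower and none higher in 5xFAD, with summed levels of 7220 to 8080 CPM in 5xFAD and 8210 to 8650 CPM in WT; the part of this in the result was not tested.

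Without 5xFAD 2 of the Ripk1 cohort, 11 members were called instead of 17: the calls of Trim5, Trim9, Trim37, Trim44, Trim56 and Trim66 were lost, with adjusted p of 0.0543 to 0.0968. Without WT 1 those of Trim5, Trim9, Trim44 and Trim56 were lost, without 5xFAD 1 that of Trim44, and without 5xFAD 3 or WT 3 that of Trim56. The other 11 calls held without any single library. The authors' deposited table lists 18 members at an adjusted p under 0.05 for this comparison, 12 higher and 6 lower in 5xFAD.

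**Figure D3:**
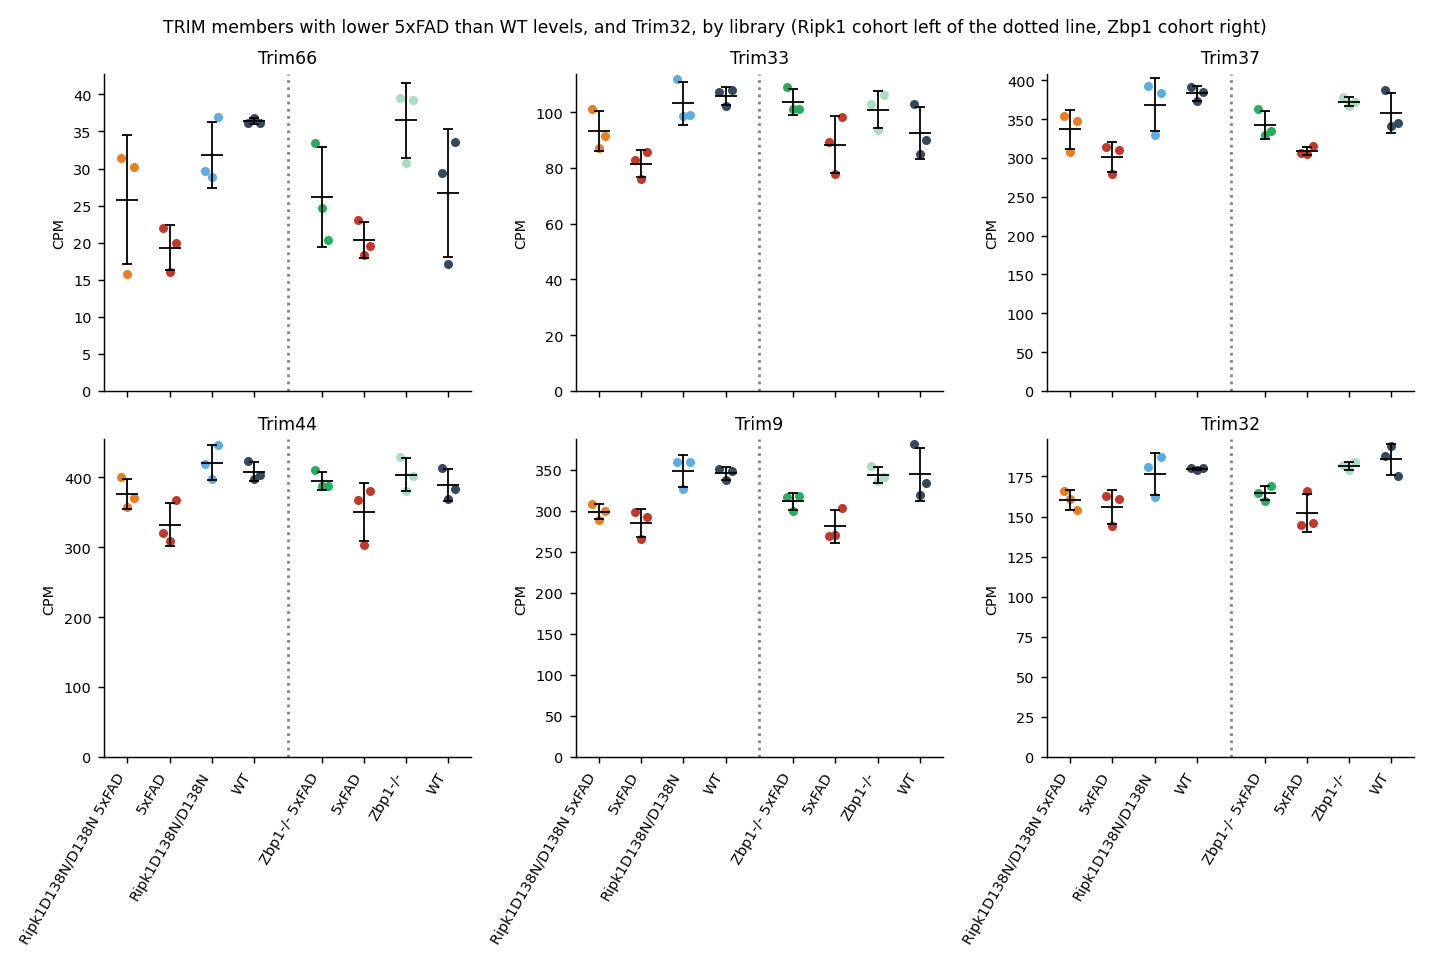
CPM of the 5 members that fell in 5xFAD of the Ripk1 cohort, and of Trim32, in each library (points), with mean (bar) and SD (whiskers) of 3 libraries, both cohorts. In the Ripk1 cohort the 5xFAD libraries of Trim66 (16 to 22 CPM) lie below the WT libraries (36.1 to 36.8 CPM), while in the Zbp1 cohort the WT libraries of Trim66 spread from 17.1 to 33.6 CPM.

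The Zbp1 cohort gave a second, separate comparison of 5xFAD with WT. Here 9 members rose and 0 fell, beside 3.13% of the 21274 genes tested (3% higher and 0.127% lower). The 9 were Trim30a, Trim30d, Trim5, Trim34a, Trim12a, Trim47, Trim21, Trim12c and Trim25, so 8 of the 12 antiviral members rose, with a list median of 1.26 against 0 for all genes. The 2 cohorts share no library. All 9 were also called higher in the Ripk1 cohort, which is 100% of the Zbp1 cohort's list and 52.9% of the Ripk1 cohort's 17. The 8 members called in the Ripk1 cohort alone had the same sign in both, though Trim33 was near 0 in the Zbp1 cohort (-0.06). The matching shares over all genes were not computed, so this overlap is not shown to be particular to the family.

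Trim30a had 18.7, 12.5 and 14.7 CPM in 5xFAD of the Zbp1 cohort, against 4.22, 4.18 and 3.51 CPM in WT (log2 fold change 1.95 ± 0.19, adjusted p = 4.02e-05). Trim30d had 11.4, 7.56 and 8.68 CPM in 5xFAD, against 1.09, 2.3 and 1.84 CPM in WT (2.33 ± 0.32, adjusted p = 0.00054). These 2 calls held without any single library and in every other setting tried. Trim5 had 3.55, 2.07 and 2.35 CPM in 5xFAD, against 0.723, 0.703 and 0.736 CPM in WT (1.88 ± 0.40, adjusted p = 0.0167). The WT values of Trim5 rest on as few as 6 counts in a library. Trim34a had 4.63, 4.55 and 4.1 CPM in 5xFAD, against 1.93, 1.25 and 1.87 CPM in WT (adjusted p = 0.0171). Trim12a had 1.32 ± 0.22, Trim12c 1.13 ± 0.26, Trim21 1.20 ± 0.30 and Trim25 0.83 ± 0.17 as log2 fold changes, with adjusted p of 0.00302 to 0.047. Trim47 had 7.68, 7.56 and 5.85 CPM in 5xFAD, against 1.93, 4.25 and 2.47 CPM in WT (1.24 ± 0.27, adjusted p = 0.018), as the single riser outside the antiviral list.

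The remaining antiviral members were positive without passing: Trim14 at 1.58 ± 0.53 (adjusted p = 0.181), Trim56 at 0.92 ± 0.28 (adjusted p = 0.123), Trim65 at 0.51 ± 0.19 (adjusted p = 0.252) and Trim26 at 0.27 ± 0.12 (adjusted p = 0.406). Trim56 had 35.1, 14.7 and 29.9 CPM in 5xFAD, against 20.3, 10.9 and 11.8 CPM in WT. Its lowest 5xFAD and lowest WT values were those of the libraries with low Malat1, and without both Trim56 was called (1.08 ± 0.21, adjusted p = 0.00642). Trim9 had -0.29 ± 0.09 (adjusted p = 0.115) and Trim32 -0.28 ± 0.08 (adjusted p = 0.0968). Trim32 was called without the 2 low-Malat1 libraries (adjusted p = 0.0226) and by DESeq2 (adjusted p = 0.017). Trim37 had -0.21 ± 0.08 (adjusted p = 0.255) and Trim44 -0.15 ± 0.10 (adjusted p = 0.609). Of the 10 neuronal markers 1 was lower in 5xFAD of this cohort and 10 were negative, with summed levels of 6790 to 7410 CPM in 5xFAD and 8340 to 8500 CPM in WT; the part of this was not tested. Trim66 had -0.39 ± 0.23 (adjusted p = 0.582), with 23.0, 18.4 and 19.6 CPM in 5xFAD, against 29.4, 17.1 and 33.6 CPM in WT, where the library at 17.1 CPM is again WT 2. Trim2, Trim3, Trim36, Trim46, Trim67, Trim71, Trim24, Trim28 and Trim33 lay between -0.17 and 0.17.

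The type I interferon list had 20 of 30 genes higher in 5xFAD of the Zbp1 cohort, the nucleic acid sensing list 8 of 26, and the microglial markers 11 of 12, with a summed microglial level of 1140 to 1980 CPM in 5xFAD and 414 to 506 CPM in WT. The part of this in the TRIM result was not tested. The count of members called fell to 4 without 5xFAD 1 and to 4 without WT 3, and a fit of these 2 genotypes alone called 2. Besides, Trim12c and Trim21 lost their calls without 5xFAD 3 or WT 1, Trim47 without WT 1, and Trim5 and Trim34a without WT 2. Trim21 also lost its call without any of 5 libraries of the Zbp1-/- genotypes, and Trim34a without both low-Malat1 libraries. The authors' deposited table lists 12 members at an adjusted p under 0.05, 10 higher and 2 lower.

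**Figure D4:**
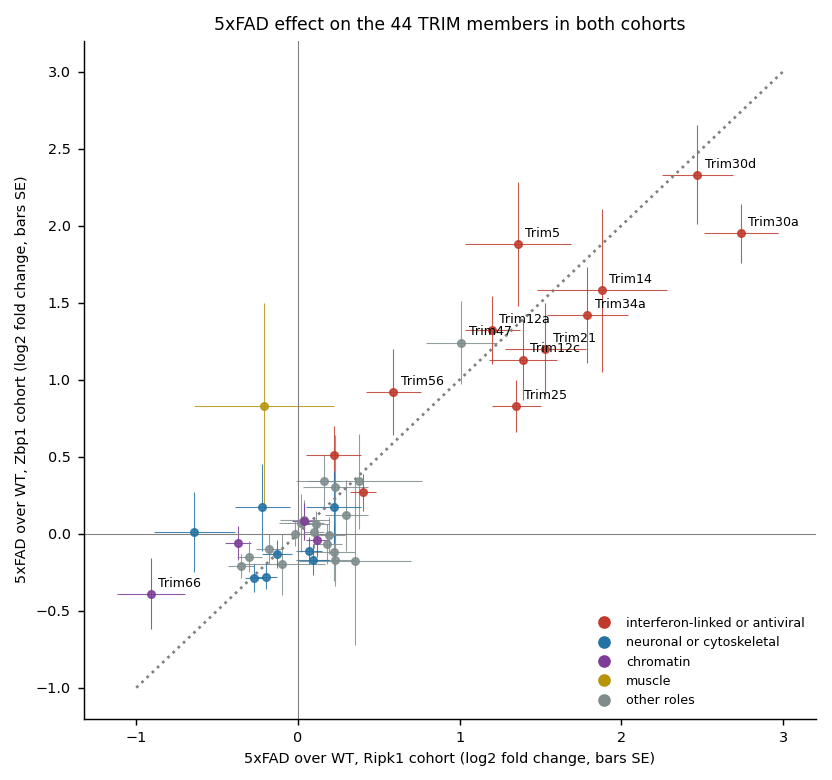
log2 fold change of 5xFAD over WT for each of the 44 members, in the Ripk1 cohort (x axis) and the Zbp1 cohort (y axis), with SE bars, coloured by role; the dotted line marks equal values. All 12 antiviral members lie above 0 on both axes, among them Trim65 (0.22 and 0.51), Trim26 (0.40 and 0.27), Trim30d (2.47 and 2.33) and Trim30a (2.74 and 1.95).

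The 5xFAD effect was not shown to differ between cohorts for any member. A fit of all 24 libraries called 0 of 44 members and 0% of 22565 genes for the difference between cohorts, and 3 members had an unadjusted p under 0.05, beside 9.14% of those genes. The smallest p was that of Trim30a, whose effect was larger in the Ripk1 cohort by 0.78 ± 0.30 (adjusted p = 0.432), followed by Trim33 at -0.32 ± 0.13 and Trim25 at 0.51 ± 0.23. DESeq2 also called 0.

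Mice with kinase-dead RIPK1 were compared next, to ask how the family stands in 5xFAD when RIPK1 cannot phosphorylate. In Ripk1D138N/D138N 5xFAD all 12 antiviral members were below their 5xFAD level, with a median log2 fold change of -0.60 against -0.01 for all genes, and Trim30a passed the test. It was the single member called, beside 0.365% of the 21376 genes tested (0.0234% higher and 0.342% lower), and 7 of the 12 had an unadjusted p under 0.05, beside 12.3% of all genes tested. The fold changes of this comparison and of 5xFAD over WT share the 5xFAD libraries of the cohort. The antiviral list was drawn up with earlier results known and was high in these libraries, which favours negative values here.

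Trim30a had 10.1, 10.3 and 9.09 CPM in Ripk1D138N/D138N 5xFAD, against 24.7, 18.5 and 28.8 CPM in 5xFAD (log2 fold change -1.29 ± 0.22, adjusted p = 0.02). The mutant libraries lay close together, and libraries without the transgenes held 2.32 to 4.75 CPM. Trim30d had 6.39, 5.97 and 7.4 CPM in Ripk1D138N/D138N 5xFAD, against 12.6, 11.4 and 15.1 CPM in 5xFAD (-0.98 ± 0.21, adjusted p = 0.0753). Trim34a had 2.57, 3.72 and 3.71 CPM in Ripk1D138N/D138N 5xFAD, against 10.1, 5.3 and 7.48 CPM in 5xFAD (-1.19 ± 0.25, adjusted p = 0.0683). Neither Trim30d nor Trim34a passed the threshold.

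Trim25 had 15.7, 12.2 and 15.1 CPM in Ripk1D138N/D138N 5xFAD, against 20.6, 21.7 and 27.8 CPM in 5xFAD (-0.71 ± 0.15, adjusted p = 0.0844). Trim21 had 3.68, 4.39 and 3.78 CPM in Ripk1D138N/D138N 5xFAD, against 7.54, 7.11 and 9.16 CPM in 5xFAD (-1.01 ± 0.25, adjusted p = 0.167). The Trim21 values of the mutant 5xFAD libraries were within the range seen without the transgenes in this cohort (1.79 to 4.44 CPM). Trim14 had -1.27 ± 0.39 (adjusted p = 0.267), with overlapping groups. The TRIM5 relatives were closer to their 5xFAD level, with -0.49 ± 0.21 for Trim12c, -0.34 ± 0.32 for Trim5 and -0.30 ± 0.17 for Trim12a. Trim56 at -0.16 ± 0.17, Trim26 at -0.13 ± 0.08 and Trim65 at -0.09 ± 0.17 differed least.

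**Figure D5:**
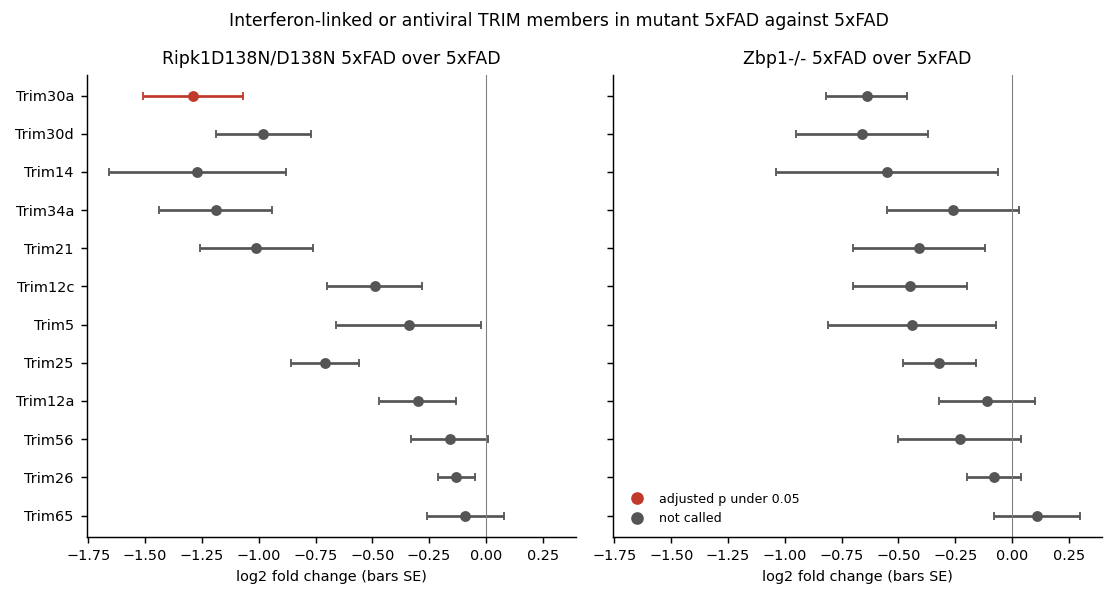
log2 fold change with SE of the 12 antiviral members in Ripk1D138N/D138N 5xFAD over 5xFAD (left) and in Zbp1-/- 5xFAD over 5xFAD (right). On the left all 12 lie below 0 and Trim30a (red) passed the test; on the right 11 of 12 lie below 0 and 0 passed.

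The members that fell in 5xFAD of the Ripk1 cohort had positive values here and did not pass: Trim66 at 0.42 ± 0.21, Trim33 at 0.19 ± 0.08, Trim44 at 0.18 ± 0.08, Trim37 at 0.16 ± 0.08 and Trim9 at 0.07 ± 0.06, with adjusted p of at least 0.358. Their selection by low values in the shared 5xFAD libraries favours positive values here. Trim66 had 31.4, 15.8 and 30.2 CPM in Ripk1D138N/D138N 5xFAD, against 22, 16 and 20 CPM in 5xFAD, and without the mutant library at 15.8 CPM it was called (0.67 ± 0.13, adjusted p = 0.0238). The neuronal list ran from -0.13 to 0.53 and the chromatin list from -0.05 to 0.42.

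In the same comparison 22 of 30 type I interferon genes were lower (median log2 fold change -1.91), as were 4 of 26 nucleic acid sensing genes, while 0 of 12 microglial markers passed (median -0.35, all 12 negative). The summed microglial level was 1040 to 1270 CPM in Ripk1D138N/D138N 5xFAD and 1380 to 1480 CPM in 5xFAD. Other marker sums differed too. T and NK lymphocyte markers summed to 2.3 to 3.49 CPM, against 4.18 to 9.02 CPM in 5xFAD. Peripheral myeloid markers summed to 0.857 to 2.71 CPM, against 3.93 to 4.48 CPM in 5xFAD. Astrocyte markers went the other way, with 8040 to 9130 CPM, against 7520 to 7820 CPM in 5xFAD. The part of any of these in the TRIM result was not tested. The Trim30a call was lost without Ripk1D138N/D138N 5xFAD 1 or 3 or without 5xFAD 1 or 3 (adjusted p of 0.08 to 0.148). The count was 3 without Ripk1D138N/D138N 5xFAD 2, which added Trim34a and Trim66, and 2 without 5xFAD 2 or without Ripk1D138N/D138N 2, which added Trim34a and Trim30d in turn. DESeq2 and a fit without a filter on low counts each called 5 members: Trim30a, Trim30d, Trim34a, Trim25 and Trim21. The authors' deposited table lists the same 5 genes at an adjusted p under 0.05, all higher in 5xFAD.

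The transgenes were also compared on the mutant background. In Ripk1D138N/D138N 5xFAD over Ripk1D138N/D138N, 3 members rose and 0 fell, beside 3.37% of genes tested (3.12% higher and 0.257% lower). Trim30a had 10.1, 10.3 and 9.09 CPM in Ripk1D138N/D138N 5xFAD, against 3.84, 4.75 and 2.32 CPM in Ripk1D138N/D138N (log2 fold change 1.43 ± 0.23, adjusted p = 0.00201). Trim30d had 6.39, 5.97 and 7.4 CPM, against 1.99, 3.28 and 2.19 CPM in Ripk1D138N/D138N (1.41 ± 0.22, adjusted p = 0.00163). Trim12c had 8.59, 8.02 and 8.81 CPM in Ripk1D138N/D138N 5xFAD, against 5.86, 5.21 and 2.88 CPM in Ripk1D138N/D138N (0.87 ± 0.21, adjusted p = 0.0386). All 12 antiviral members were positive, with a median of 0.67, and the smallest was Trim21 at 0.16 ± 0.25. In the same comparison 15 of 30 type I interferon genes (median 1.08), 9 of 12 microglial markers (median 1.33), 7 of 7 oligodendrocyte markers (median 0.66) and 3 of 8 astrocyte markers were higher. Microglial markers summed to 1040 to 1270 CPM in Ripk1D138N/D138N 5xFAD, against 383 to 402 CPM in Ripk1D138N/D138N, and oligodendrocyte markers to 6780 to 8920 CPM, against 4320 to 5370 CPM in Ripk1D138N/D138N, with none at 0. The part of these in the TRIM values was not tested. The call of Trim12c was lost without any of 8 libraries, the 3 of Ripk1D138N/D138N 5xFAD among them (adjusted p up to 0.129), and in a fit of the 2 genotypes alone (adjusted p = 0.116). Without Ripk1D138N/D138N 2 the count was 5, and DESeq2 called 7 members.

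Without the transgenes the mutation moved no member past the threshold. Ripk1D138N/D138N over WT called 0 members and 0% of genes in edgeR, 0 members had an unadjusted p under 0.05, beside 2.4% of genes, and DESeq2 called 0 members. The 3 smallest p were those of Trim17 at -0.53 ± 0.27, Trim12a at 0.33 ± 0.17 and Trim67 at -0.31 ± 0.17. The interaction, which asks whether the 5xFAD effect itself differs between Ripk1D138N/D138N and WT backgrounds, called 0 members beside 0.0281% of genes. All 12 antiviral members had a negative interaction (median -0.72) and 6 of them had an unadjusted p under 0.05, beside 7.47% of genes. The interaction also uses the 5xFAD and WT libraries of 5xFAD over WT, which again favours negative values for the antiviral list. The smallest p were those of Trim30a at -1.31 ± 0.32 (adjusted p = 0.366), Trim21 at -1.36 ± 0.35 (adjusted p = 0.421) and Trim25 at -0.81 ± 0.22 (adjusted p = 0.437). DESeq2 (adjusted p = 0.0153) and the fit without a filter on low counts (adjusted p = 0.00888) called Trim30a.

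Loss of ZBP1 was the other perturbation. In Zbp1-/- 5xFAD over 5xFAD, 0 members and 0% of 21274 genes were called in edgeR, DESeq2 called 0 members, and 5 members had an unadjusted p under 0.05, beside 8.81% of those genes. Trim30a had 9.81, 9.15 and 10.3 CPM in Zbp1-/- 5xFAD, against 18.7, 12.5 and 14.7 CPM in 5xFAD (log2 fold change -0.64 ± 0.18, adjusted p = 0.376). Its groups did not overlap, which with 3 libraries each is not a test. Trim30d had 6.28, 6.3 and 4.83 CPM in Zbp1-/- 5xFAD, against 11.4, 7.56 and 8.68 CPM in 5xFAD (-0.66 ± 0.29, adjusted p = 0.549). Trim47 had 4.72, 4.56 and 4.44 CPM in Zbp1-/- 5xFAD, against 7.68, 7.56 and 5.85 CPM in 5xFAD (-0.62 ± 0.26, adjusted p = 0.529), and Trim16 had 2.07, 1.6 and 1.95 CPM, against 2.55, 2.9 and 3.78 CPM (-0.71 ± 0.31, adjusted p = 0.544). Of the 12 antiviral members 11 were negative, with a median of -0.36, and Trim65 had 0.11 ± 0.19. This comparison too shares its 5xFAD libraries with 5xFAD over WT of the cohort, which favours negative values for members high there.

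The neuronal list ran from -0.03 to 0.33 and the chromatin list from -0.08 to 0.37 in the same comparison, and 0 members of either passed. Microglial markers had a median log2 fold change of -0.89, with 0 of 12 called and 12 at an unadjusted p under 0.05, and summed to 790 to 949 CPM in Zbp1-/- 5xFAD and 1140 to 1980 CPM in 5xFAD. The type I interferon list had a median of -0.74, with 0 of 30 called. Oligodendrocyte markers summed to 4660 to 5790 CPM in Zbp1-/- 5xFAD and 6420 to 6760 CPM in 5xFAD. Neuronal markers summed to 7350 to 7920 CPM in Zbp1-/- 5xFAD and 6790 to 7410 CPM in 5xFAD. The part of any of these in the values of the TRIM members was not tested.

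On the Zbp1-/- background the transgenes raised 3 members and lowered 0, beside 1.23% of genes tested (1.18% higher and 0.0423% lower). Trim30a had 9.81, 9.15 and 10.3 CPM in Zbp1-/- 5xFAD, against 2.88, 3.02 and 2.99 CPM in Zbp1-/- (log2 fold change 1.72 ± 0.19, adjusted p = 0.000309). Trim30d had 6.28, 6.3 and 4.83 CPM in Zbp1-/- 5xFAD, against 1.13, 1.44 and 2.35 CPM in Zbp1-/- (1.82 ± 0.31, adjusted p = 0.00745). Trim25 had 12.8, 14.9 and 14.9 CPM in Zbp1-/- 5xFAD, against 7.29, 7.68 and 10.1 CPM in Zbp1-/- (0.76 ± 0.17, adjusted p = 0.0394). All 12 antiviral members were positive (median 0.94). With them 9 of 12 microglial markers (median 1.16), 5 of 30 type I interferon genes (median 0.87) and 2 of 8 astrocyte markers were higher. Microglial markers summed to 790 to 949 CPM in Zbp1-/- 5xFAD, against 333 to 359 CPM in Zbp1-/-, with none at 0, and their part in the TRIM values was not tested. Trim5 had 2.74, 1.6 and 1.52 CPM in Zbp1-/- 5xFAD, against 0.431, 0.807 and 0.754 CPM in Zbp1-/- (1.55 ± 0.39, adjusted p = 0.0876), as the largest that did not pass.

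The count of members called on this background was 7 by DESeq2, 7 without the low-Malat1 libraries of the other genotypes and 1 without Zbp1-/- 1 or without Zbp1-/- 2, where Trim30d and Trim25 lost their calls. Trim25 also lost its call without any of the 3 Zbp1-/- 5xFAD libraries, 5xFAD 1 or WT 3. Zbp1-/- over WT called 0 members and 0% of genes, with 0 members at an unadjusted p under 0.05, beside 3.66% of genes, and 0 called by DESeq2. Trim30a, which had the smallest p, had 2.88, 3.02 and 2.99 CPM in Zbp1-/-, against 4.22, 4.18 and 3.51 CPM in WT (-0.41 ± 0.19, adjusted p = 0.942), followed by Trim66 at 0.45 ± 0.23 and Trim65 at 0.37 ± 0.19. The interaction of the transgenes with Zbp1-/- called 0 members and 0% of genes, with 2 members at an unadjusted p under 0.05, beside 2.26% of genes, and 0 called by DESeq2. The smallest p was that of Trim47 at -0.90 ± 0.37, followed by Trim59 at 0.53 ± 0.24 and Trim27 at -0.38 ± 0.24, with an adjusted p of 1 for each.

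Among the 24 TRIM genes below the CPM minimum, 5 belong to the antiviral list: Trim6, Trim30b, Trim30c, Trim34b and Trim38. Trim30b had 0.589, 0.462 and 1.31 CPM in 5xFAD of the Ripk1 cohort, against 0.456, 0.0482 and 0 CPM in WT, and was not called (adjusted p = 0.172). In the Ripk1 cohort 6 of the 24 had enough counts for a test of 5xFAD over WT, in the Zbp1 cohort 5 had, and 0 were called in either. Some TRIM-family proteins have genes with other symbols. Pml, which builds nuclear bodies and is interferon-induced, rose in the Ripk1 cohort (log2 fold change 0.61 ± 0.13, adjusted p = 0.00758) and had 0.21 ± 0.14 in the Zbp1 cohort. Mid2, a microtubule-associated ligase, fell by 0.48 ± 0.13 in the Ripk1 cohort (adjusted p = 0.0202) and had 0.02 ± 0.13 in the Zbp1 cohort. The list of such genes has 4, and Mid1 and Mefv are not described by cohort here. In the fit of all 24 libraries Mid1 had a difference between cohorts of -0.18 ± 0.58, and Mefv was not tested.

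The last experiment asked which RNA came down with ZBP1. Its groups were a ZBP1 immunoprecipitate and an input from 5xFAD and from WT mice, all aged 9 months. Each group had 1 library, so no test was made, and intervals are exact 95% binomial intervals that cover counting error only. The ZBP1 immunoprecipitate held 6808879 counts and the input 9444018 counts in 5xFAD hippocampus, and the WT immunoprecipitate held 5742746 counts and its input 8911548 counts, with 7.62% to 8.97% of counts on gene rows and the rest on repeat families. The members had a median of 21 counts in the immunoprecipitate and 39.5 in the input in 5xFAD, so single genes are measured coarsely. Input counts followed hippocampal level only in part. Over the 68 TRIM genes their rank correlation was 0.58 in 5xFAD and 0.61 in WT. In the 5xFAD input Trim10, at a hippocampal mean of 0.0666 CPM, had 42 counts, as many as Trim30a at 9.23 CPM. Trim54 at 0.004 CPM had 24 counts, and Trim2 at 656 CPM had 113. How far these counts stem from TRIM transcripts, and so what the ratios say of binding, was not tested.

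The family's ratios lay near those of other genes. The ratio of immunoprecipitate to input, each per library total, had a median of 0.739 over the 44 members in 5xFAD and 0.806 in WT, while all gene rows with at least 10 input counts had 0.734 and 0.86. At least 2-fold enrichment was found for 1 member in 5xFAD, beside 0.337% of 20770 gene rows, and for 0 in WT, beside 0.839% of 20137. The member was Trim12a, with 19 immunoprecipitate and 11 input counts in 5xFAD, a ratio of 2.4 (1.08 to 5.57); in WT it had 16 and 17 counts, a ratio of 1.46 (0.691 to 3.07). Trim30a had 24 immunoprecipitate and 42 input counts in 5xFAD (ratio 0.793, 0.459 to 1.34) and 22 and 28 counts in WT (ratio 1.22, 0.665 to 2.21). Trim25 had ratios of 0.738 (0.469 to 1.14) in 5xFAD and 1 (0.617 to 1.61) in WT.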

How the data were processed

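The authors deposited 1 table of raw read counts per Ensembl gene ID for each cohort, and 1 count table of gene symbols and repeat families for the RIP libraries; the authors' deposited comparison tables hold log2 fold changes and p-values (adjusted p as given), per the file headers. Per the submitters' processing notes the tools include HISAT2, DESeq2 1.42.1 and edgeR 4.0.16, with builds mm10 and mm39; counting options and strand: not given in the sources used here. Gene symbols matched 55141 of 55487 IDs.

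Everything else was computed here. Each cohort's 12 libraries were fitted together (R 4.3.3, edgeR 4.0.16: TMM, filterByExpr by genotype, quasi-likelihood test, Benjamini-Hochberg over all genes tested). CPM are TMM-scaled within a cohort and do not account for gene length. The SE is the absolute log2 fold change over the square root of F. The difference between cohorts came from a fit of all 24 libraries. Alternatives were DESeq2 1.42.0, other scaling and filters, a replicate block, 2-genotype fits and leaving out libraries.

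Named were members called in a comparison, the members of the antiviral, neuronal and chromatin lists, and the 3 smallest p where fewer than 3 were called; Trim30b, and Trim37, Trim44 and Trim47 outside the comparisons that called them, were named after their values were seen. The members and lists were chosen with earlier results of these data known. No 2 libraries of a genotype were alike within counting error (chi-square divided by its degrees of freedom, 7.8 to 87.5). Where groups are said not to overlap, the share of all genes without overlap was not computed. In the RefSeq listing 10 called members overlap another gene, of which Ppm1e (with Trim37) is protein-coding.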

Additional observations from a re-analysis of the deposited data

How the results depend on the processing

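Of 33 member calls over the comparisons, 0 reversed their sign under any alternative. Of all single-member values tried 573 kept their call, 66 lost it and 60 uncalled ones gained it. A higher CPM minimum for members was among the alternatives. It reuses the same fit and kept all 33 calls by construction, and these are counted among the 573. The number of members was 44 with TMM-scaled CPM too. In Ripk1D138N/D138N 5xFAD over 5xFAD, 1 member was called, and 5 by DESeq2 and without a filter on low counts. For Ripk1D138N/D138N 5xFAD over Ripk1D138N/D138N the 3 calls became 7 by DESeq2 and 5 without the filter. For Zbp1-/- 5xFAD over Zbp1-/- the 3 calls became 7 by DESeq2, 6 without the filter, 5 with the replicate block, 7 without the low-Malat1 libraries and 7 with the 2 genotypes alone. The interaction of the transgenes with Ripk1D138N/D138N had 1 call by DESeq2 and 1 without the filter, against 0. The 5xFAD over WT comparison of the Zbp1 cohort had 2 calls with the 2 genotypes alone, against 9. The causes of these moves were not tested. Leaving out 1 library at a time gave 11 to 18 calls for 5xFAD over WT in the Ripk1 cohort, 4 to 11 in the Zbp1 cohort, 0 to 3 for Ripk1D138N/D138N 5xFAD over 5xFAD, 2 to 5 for Ripk1D138N/D138N 5xFAD over Ripk1D138N/D138N and 1 to 4 for Zbp1-/- 5xFAD over Zbp1-/-, and 0 for each of the other comparisons. The single RIP enrichment, Trim12a, was lost with an input minimum of 30 counts (0 members). Same-numbered libraries of different genotypes deviated together in 5 of 18 pairs of each cohort (correlation over 0.1). The range was -0.22 to 0.24 in the Ripk1 cohort and -0.11 to 0.40 in the Zbp1 cohort. With 3 libraries per genotype these correlations cannot settle whether the numbers pair libraries. The highest, 0.40, was that of 5xFAD 2 and WT 2 of the Zbp1 cohort, the low-Malat1 libraries. Apart from the 5 calls named, the replicate block gave 17, 9, 1 and 4 calls in the comparisons with calls; Trim12c in Ripk1D138N/D138N 5xFAD over Ripk1D138N/D138N then had an adjusted p of 0.0562. The lowest counts in a library were 6 for Trim5, 9 for Trim14 and 1 for Trim72, which limits those members.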
